A study of Mus musculus with 32 samples.

Results

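Hepatic expression of 10 genes of the acute-phase response and of the IL-6 signal that drives it was followed in the offspring of mice on a high-fat (HF) or low-fat (LF) diet. The genes were chosen by name and are the serum amyloids Saa1, Saa2, Saa3 and Saa4, lipocalin 2 (Lcn2), the orosomucoids Orm1 and Orm2, haptoglobin (Hp), the transcription factor Stat3 and its inhibitor Socs3. All 10 were found among the 21115 probe sets of the array, with 1 probe set per gene. Livers of 32 male C57Bl/6J mice were hybridized, 1 mouse per array: 9 HF/HF and 9 LF/HF offspring of 28 weeks and 7 HF/HF and 7 LF/HF offspring of 12 weeks. HF/HF mice had a father and a mother fed the HF diet (45% of energy as fat), and LF/HF mice had parents fed a LF standard chow (9%). The parents had eaten it for 6 weeks when they were mated, and the dams kept to it until the pups were weaned. Every offspring was then given the HF diet, so no offspring on a LF diet was analysed here and age goes together with time on the HF diet. Chow and HF diet differed in protein and carbohydrate as well as in fat. The labels do not give the litter of a mouse, and mice that share a litter could make the p-values too small, since these measure only the spread between the mice.

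The acute-phase response is the change in plasma protein synthesis by the liver during infection or tissue injury. IL-6 from macrophages and other cells binds its receptor and gp130 on hepatocytes, JAK kinases then phosphorylate STAT3, and STAT3 acts with C/EBP factors and with the IL-1 and NF-kB arm on the promoters of acute-phase genes. SOCS3 is induced by STAT3 and shuts the receptor complex off again. In mice, Saa1, Saa2 and Saa3 are strongly inducible, whereas Saa4 is expressed constitutively. Hp and Orm1 are abundant in the unstimulated liver.

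The promoters of the genes that differed most are shown with those of Saa4 and Socs3, because C/EBP and STAT factors are known to act on promoters of this kind and because Saa1 and Saa2 are near copies of each other. The sequences are those of RefSeq (GRCm38.p6), which held promoters for 8 of the 10 genes. Each line gives the first 250 bases of the promoter entry, 5′ to 3′ on the strand of the gene. The base after this window need not be the outer end of the gene. The Socs3 window lies within the annotated gene (chr11:117966079-117970336), and the Saa1 window overlaps its gene (chr7:46740497-46743181). Capitals mark the C/EBP core TTGCNNAA and, in Socs3, the STAT site TTCNNNGAA, both searched on both strands. These are chr7:46742981-46743230 (minus strand) for Saa1, chr7:46751583-46751832 (plus strand) for Saa2, chr2:32387740-32387989 (minus strand) for Lcn2, chr4:63362199-63362448 (plus strand) for Orm2, chr7:46732604-46732853 (minus strand) for Saa4 and chr11:117969367-117969616 (minus strand) for Socs3.
Saa1: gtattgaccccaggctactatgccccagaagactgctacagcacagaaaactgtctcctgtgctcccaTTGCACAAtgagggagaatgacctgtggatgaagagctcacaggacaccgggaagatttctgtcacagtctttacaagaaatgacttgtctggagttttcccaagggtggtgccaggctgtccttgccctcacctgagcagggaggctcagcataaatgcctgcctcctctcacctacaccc
Saa2: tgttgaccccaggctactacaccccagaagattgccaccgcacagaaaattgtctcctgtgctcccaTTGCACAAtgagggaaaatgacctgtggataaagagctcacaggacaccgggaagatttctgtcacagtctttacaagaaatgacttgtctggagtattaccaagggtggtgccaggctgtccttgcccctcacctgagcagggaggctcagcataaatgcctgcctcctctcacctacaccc
Lcn2: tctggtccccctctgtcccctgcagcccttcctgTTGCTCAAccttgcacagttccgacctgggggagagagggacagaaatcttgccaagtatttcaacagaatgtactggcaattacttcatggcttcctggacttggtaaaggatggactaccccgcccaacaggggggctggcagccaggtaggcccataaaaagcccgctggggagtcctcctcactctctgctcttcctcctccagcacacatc
Orm2: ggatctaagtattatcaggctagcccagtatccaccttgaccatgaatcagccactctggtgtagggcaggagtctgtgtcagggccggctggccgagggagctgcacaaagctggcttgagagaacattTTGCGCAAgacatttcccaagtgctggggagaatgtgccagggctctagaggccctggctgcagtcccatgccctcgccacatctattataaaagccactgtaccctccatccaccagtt
Saa4: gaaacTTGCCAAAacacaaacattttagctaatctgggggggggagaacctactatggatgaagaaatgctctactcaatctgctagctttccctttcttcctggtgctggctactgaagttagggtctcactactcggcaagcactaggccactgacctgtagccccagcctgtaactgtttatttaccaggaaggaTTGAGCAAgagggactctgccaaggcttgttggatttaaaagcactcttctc
Socs3: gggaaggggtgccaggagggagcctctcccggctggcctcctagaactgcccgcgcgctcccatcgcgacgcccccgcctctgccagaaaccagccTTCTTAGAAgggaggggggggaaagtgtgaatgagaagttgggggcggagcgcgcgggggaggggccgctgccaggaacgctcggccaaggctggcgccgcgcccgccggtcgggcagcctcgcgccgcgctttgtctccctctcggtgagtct

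The core TTGCNNAA was present in 6 of the 8 promoters, and in 9.56% of the 32851 promoter windows of the same length in the RefSeq table. It began at position -182 in Saa1 and -183 in Saa2, counted back from the base after the window, in the same run of TTGCACAA. It began at -216 in Lcn2, -120 in Orm2 and -99 in Saa3, and at -245 and -52 in Saa4. The letters were absent from these windows of Stat3 and Socs3. The Saa3 window lay within its annotated gene, and the Stat3 window overlapped its gene. The STAT site TTCNNNGAA, present in 7.02% of all windows, occurred in 1 of the 8 promoters, at -154 in Socs3. Both motifs were picked with the sequences in view, and a match is a run of letters, not a measured binding site. The promoters of Saa1 and Saa2 had 238 identical bases in 251 aligned columns (94.8%), whereas the other 27 pairs of promoters were 43.8% to 54.5% identical. The transcripts of Saa1 and Saa2 are also near copies, so their probe sets may share signal and the pair should not be counted as 2 independent measurements. RefSeq lists each of the 2 names as a synonym of the other. The names here follow the Entrez gene IDs 20208 (Saa1) and 20209 (Saa2).

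The array medians lay between 8.37 and 9.39 in all 4 groups, on the linear scale. The tissue label was borne out by 10 of 10 hepatocyte markers, whose mean log2 intensity was 11.46 to 11.71 in every mouse. In contrast, 11 of 12 neutrophil markers had a mean below 3.10, the median over all genes. Skeletal muscle markers were high in 3 mice, with list means of 5.85 in LF/HF replicate 8 of 28 weeks, 4.17 in HF/HF replicate 3 of 12 weeks and 8.69 in LF/HF replicate 1 of 12 weeks, so results are also given without these mice where a call changed. The array names fell into 2 series, taken here as plates, and each plate held mice of every group. All values below are log2 of the normalized intensity. Levels of different genes cannot be set against each other on this scale, since each probe set has its own response.

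To see whether the parental HF diet was related to the acute-phase genes in young adults, HF/HF offspring were compared with LF/HF offspring at 12 weeks. Saa1, Saa2, Lcn2 and Orm2 were each about 2-fold higher in HF/HF offspring, whereas the intervals of Saa3, Saa4, Stat3 and Socs3 included 0. These 4 of the 10 genes met the study's criterion (unadjusted P under 0.05 and an absolute fold change over 1.2), all of them higher. Over all genes tested, 1.45% met it as higher and 1.47% as lower. No gene passed an adjusted p of 0.05 (0 of 21115 probe sets, 0%, in limma with Benjamini-Hochberg adjustment), while 5 of the 10 genes and 998 of all genes had an unadjusted P under 0.05. The median log2 fold change was 0.24 over the 10 genes, beside 0.00 over all genes.

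Saa1 encodes an apolipoprotein of high-density lipoprotein that is made by hepatocytes during inflammation. Its lowest, median and highest log2 values were 5.49, 7.15 and 8.87 in HF/HF offspring, against 4.95, 5.99 and 6.34 in LF/HF offspring. The groups overlapped, but 5 of 7 HF/HF mice exceeded the highest LF/HF mouse. The log2 fold change was 1.25 (limma, unadjusted P = 0.00234 and adjusted p = 0.919, SE 0.38), and the two-sided exact permutation test over 3432 arrangements of the mice gave P = 0.0175. Saa1 was also a candidate gene that the study had selected on these arrays for being different at the younger age, so its call is not independent of that choice. The study then measured Saa1 by real-time PCR in livers of these offspring and reported a significant change at the younger age only. It also reported a correlation of Saa1 mRNA on the arrays with DNA methylation upstream of the gene at that age. That methylation itself was reported without a significant change by parental diet.

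Saa2, its neighbour on chromosome 7 with the same role, was at 4.94, 6.81 and 8.82 in HF/HF offspring (lowest, median and highest) and at 4.95, 5.63 and 6.42 in LF/HF offspring. Here too 5 of 7 HF/HF mice exceeded every LF/HF mouse, while 1 HF/HF mouse lay below all of them. The log2 fold change was 1.17 (limma, unadjusted P = 0.00691, SE 0.41, exact permutation P = 0.0472). The same HF/HF mouse, replicate 6, had the highest Saa1, Saa2 and Orm2, and the same HF/HF mouse, replicate 1, had the lowest Saa1, Saa2, Lcn2 and Orm2 of its group.

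Lcn2 encodes a secreted protein that binds bacterial iron carriers and is made by hepatocytes and by neutrophils. Its log2 values were 4.21, 5.87 and 7.79 in HF/HF offspring, against 3.81, 5.04 and 5.32 in LF/HF offspring, again as lowest, median and highest. All HF/HF mice but replicate 1 lay above the highest LF/HF mouse (6 of 7). The log2 fold change was 1.19 (limma, unadjusted P = 0.00515, SE 0.40, exact permutation P = 0.0291). The summed linear intensity of the 12 neutrophil markers reached 49.4 to 58.3 in HF/HF mice, against 50.4 to 56.8 in LF/HF mice, and the neutrophil surface gene Ly6g was at 1.41 to 1.83 in HF/HF and 1.38 to 2.03 in LF/HF mice. The HF/HF mouse of highest Lcn2 was the one with muscle markers, and without the mice with muscle markers the log2 fold change of Lcn2 was 0.92 (limma, unadjusted P = 0.0301). In whole liver, more cells that express a gene and more of its RNA per cell cannot be told apart.

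Orm2 encodes an orosomucoid, a plasma glycoprotein that carries lipids and drugs. It was at 5.40, 6.24 and 7.67 in HF/HF offspring and at 4.81, 5.56 and 5.88 in LF/HF offspring, and 6 of 7 HF/HF mice lay above every LF/HF mouse. Its log2 fold change was 0.97 (limma, unadjusted P = 0.00446, SE 0.32, exact permutation P = 0.0105). Orm1, the other orosomucoid, was at 10.46, 10.55 and 10.93 in HF/HF offspring, against 10.20, 10.23 and 10.84 in LF/HF offspring. All 7 HF/HF mice exceeded the LF/HF mean of Orm1, and 4 of 7 LF/HF mice lay below the lowest HF/HF mouse. Its fold change of 1.18 was below the study's limit, although P was 0.0434 (unadjusted, limma). The exact permutation test of Orm1 gave P = 0.0723.

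**Figure D1:**
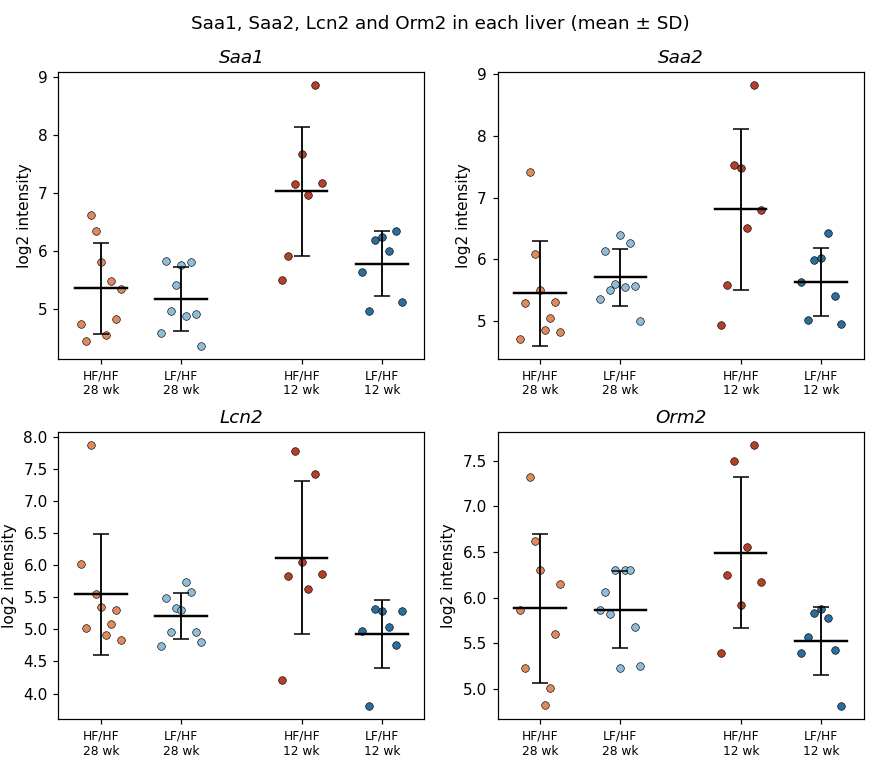
Log2 intensity (vertical axis) of Saa1, Saa2, Lcn2 and Orm2 in each mouse (points), with the mean (bar) and SD (whiskers) of the 4 groups, HF/HF and LF/HF at 28 weeks (n = 9 each) and at 12 weeks (n = 7 each). At 12 weeks 5 or 6 of 7 HF/HF mice lay above every LF/HF mouse, whereas at 28 weeks 1 or 2 of 9 HF/HF mice per gene lay above, and for Saa2 and Orm2 3 of 9 lay below, every LF/HF mouse.

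The remaining genes did not meet the criterion at 12 weeks. Hp encodes haptoglobin, which captures free haemoglobin, and averaged 11.86 ± 0.14 in HF/HF and 11.73 ± 0.09 in LF/HF mice (log2, SD, n = 7 each). Its log2 fold change was 0.13 (95% interval -0.01 to 0.27, limma, unadjusted P = 0.0736), and 6 of 7 HF/HF mice exceeded the mean of LF/HF mice. Saa3 is expressed in mice mainly by macrophages and adipocytes. It was at 3.89, 4.02 and 4.78 in HF/HF and 3.78, 4.22 and 5.07 in LF/HF mice, with a log2 fold change of -0.11 (interval -0.48 to 0.27). Saa4 was at 9.29, 10.05 and 10.77 in HF/HF and 9.54, 10.38 and 10.78 in LF/HF mice, with a log2 fold change of -0.20 (interval -0.60 to 0.20). Thus the 4 serum amyloid genes of 1 chromosomal cluster were split, with Saa1 and Saa2 higher and intervals around 0 for Saa3 and Saa4.

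Neither gene of the signal itself met the criterion. Stat3, the transcription factor that IL-6 activates by phosphorylation rather than mainly by synthesis, was at 7.81, 7.97 and 8.26 in HF/HF offspring and at 7.75, 7.91 and 8.21 in LF/HF offspring. Its log2 fold change was 0.07 (interval -0.19 to 0.33). Socs3, the feedback inhibitor, was at 3.56, 4.65 and 5.74 in HF/HF offspring and at 3.84, 4.30 and 5.08 in LF/HF offspring. Its log2 fold change was 0.24 (interval -0.46 to 0.94), and 2 HF/HF mice lay above and 2 below all LF/HF mice. The HF/HF mouse of highest Socs3 was replicate 1, which had the lowest Saa1, Saa2, Lcn2 and Orm2 of the group. Arrays measure mRNA, so the phosphorylation of STAT3 was not observed.

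The calls were uneven between the plates. On plate 1, with 4 HF/HF and 3 LF/HF mice of 12 weeks, the log2 fold changes were 0.96 for Saa1, 0.83 for Saa2, 1.27 for Lcn2 and 0.67 for Orm2, and none met the criterion (unadjusted P = 0.0719 to 0.188 from limma). On plate 2, with 3 HF/HF and 4 LF/HF mice, they were 1.75, 1.68, 1.22 and 1.33 in the same order of genes, and all 4 met it. When any 1 of the 14 mice was left out, each of these 4 genes still met the criterion, at log2 fold changes of 0.95 to 1.51 for Saa1, 0.84 to 1.49 for Saa2, 0.91 to 1.51 for Lcn2 and 0.77 to 1.15 for Orm2.

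The rest of the acute-phase repertoire and of the IL-6 pathway was described by lists. Of 26 other positive acute-phase genes, 15 were higher and 11 lower at 12 weeks, with a median log2 fold change of 0.01, and 1 met the criterion. This was Apcs, which encodes serum amyloid P, at 0.39 (limma, unadjusted P = 0.0119, SE 0.15). Of 18 measured genes of the IL-6 pathway, 5 were higher and 13 lower (median -0.03), and 1 met the criterion. This was Lifr, the receptor subunit of leukemia inhibitory factor, which fell by 0.40 (limma, unadjusted P = 0.0176, SE 0.16). None of 12 genes that are induced by STAT3 or act beside it in hepatocytes met it. Of 16 genes of the IL-1, TNF and NF-kB arm, 6 were higher and 10 lower (median -0.05), and the IL-1 receptor Il1r1 met the criterion with a log2 fold change of -0.51 (limma, unadjusted P = 0.00452, SE 0.17). Il6 itself averaged 1.54 ± 0.18 in HF/HF and 1.57 ± 0.14 in LF/HF livers (log2, SD, n = 7 each), and Tnf averaged 1.99 ± 0.15 and 2.04 ± 0.22, all below the median over all genes, where an array resolves differences poorly. Of the 9 measured negative acute-phase genes, whose synthesis normally falls during the response, 7 were higher and 2 lower and none met the criterion. Albumin (Alb) averaged 13.38 ± 0.03 in HF/HF and 13.36 ± 0.03 in LF/HF mice. Among 11 measured Kupffer cell and macrophage markers 1 met the criterion, the haemoglobin scavenger receptor Cd163 at -0.64 (limma, unadjusted P = 0.00538, SE 0.21), and their summed intensity reached 802 to 1954 in HF/HF mice, against 1001 to 1618 in LF/HF mice (medians 1004 and 1070). The highest sum, 1954, was that of HF/HF replicate 3, the mouse with muscle markers and the highest Lcn2, which also had the highest mean of the 10 stellate cell markers (6.81). Of these stellate markers 8 were higher and 2 lower, and none met the criterion. The T cell genes Cd3e at 0.29 and Cd3g at 0.39 (2 of 10 lymphocyte markers) and Pparg at 0.56 (1 of 10 adipocyte markers) met it as higher, and none of 4 measured blood markers did. Whether the cell content bears on the acute-phase genes was not tested.

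At 28 weeks none of the 10 genes met the criterion between HF/HF and LF/HF offspring, against 0.961% of all genes as higher and 1.19% as lower, and no gene passed an adjusted p of 0.05 in limma (0%). None of the 10 genes had an unadjusted P under 0.05, beside 1083 of all genes. The median log2 fold change was 0.06, with 9 genes higher and Saa2 lower. All intervals included 0.

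Saa1 was at 4.43, 5.34 and 6.63 in HF/HF offspring of 28 weeks (lowest, median and highest), against 4.36, 4.96 and 5.83 in LF/HF offspring. The groups overlapped over most of their range, with 2 of 9 HF/HF mice above every LF/HF mouse. The log2 fold change was 0.19 (SE 0.34, 95% interval -0.49 to 0.87). Saa2 was at 4.71, 5.30 and 7.42 in HF/HF and 5.003, 5.57 and 6.39 in LF/HF mice, with a log2 fold change of -0.26 (SE 0.36, interval -0.99 to 0.47). The highest Saa2 value belonged to HF/HF replicate 3, and 3 other HF/HF mice lay below all LF/HF mice.

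Lcn2 was at 4.83, 5.30 and 7.87 in HF/HF and 4.75, 5.31 and 5.73 in LF/HF mice of 28 weeks, with a log2 fold change of 0.34 (SE 0.35, interval -0.38 to 1.05). The medians were nearly equal, and HF/HF replicate 3 alone reached 7.87. Without it the log2 fold change of Lcn2 was 0.05. Orm2 was at 4.82, 5.87 and 7.33 in HF/HF and 5.23, 5.86 and 6.31 in LF/HF mice, with a log2 fold change of 0.01 (SE 0.28, interval -0.56 to 0.58). Its highest value again came from HF/HF replicate 3, while 3 HF/HF mice lay below all LF/HF mice.

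The log2 fold changes of the other 6 genes at 28 weeks were 0.04 for Saa3, 0.06 for Saa4, 0.06 for Orm1, 0.03 for Hp, 0.10 for Stat3 and 0.36 for Socs3. Socs3 had the widest interval of these (-0.25 to 0.98), with values of 3.67, 4.24 and 5.61 in HF/HF and 3.02, 3.97 and 5.61 in LF/HF mice. On plate 1 alone Socs3 met the criterion, with a log2 fold change of 0.99, whereas on plate 2 it was -0.16. Among the lists, 1 of 26 other acute-phase genes met the criterion, the IL-1 receptor antagonist Il1rn, at 0.35 (limma, unadjusted P = 0.0359, SE 0.16). Il1rn averaged 3.11 in HF/HF and 2.76 in LF/HF mice, near or below the median over all genes (3.10), where an array resolves differences poorly. None of the 18 IL-6 pathway genes and none of the 12 genes induced by or acting beside STAT3 met the criterion. Of the 16 genes of the IL-1, TNF and NF-kB arm, 13 were higher and 3 lower (median 0.08), and the 1 that met the criterion was lower, the IL-1 ligand Il1a at -0.33 (limma, unadjusted P = 0.0230, SE 0.14). Among the cell type markers, Cd163 at -0.45 and Vsig4 at -0.37 (Kupffer cells) and Lrat at -0.53 (stellate cells) met it as lower, and the stellate marker Pdgfrb at 0.33 met it as higher. The study had selected Cd163 on these arrays for differing at both ages.

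**Figure D2:**
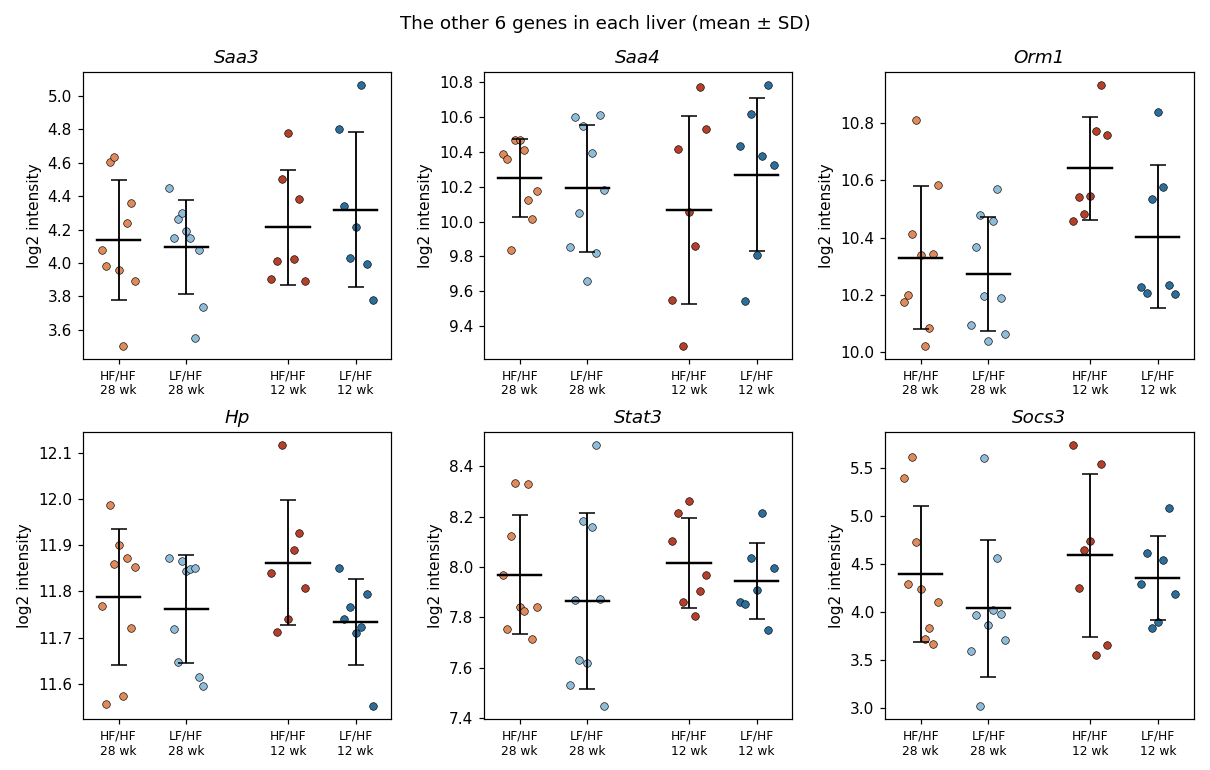
Log2 intensity (vertical axes, which differ between genes) of Saa3, Saa4, Orm1, Hp, Stat3 and Socs3 in each mouse, with the mean (bar) and SD (whiskers) of HF/HF and LF/HF offspring of 28 weeks (n = 9 each) and 12 weeks (n = 7 each). The groups overlapped for all 6 genes at both ages.

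The difference between the ages was then tested directly, as the diet difference at 28 weeks minus that at 12 weeks. It met the criterion for Saa2 at -1.43 (limma, unadjusted P = 0.0126, SE 0.54), Saa1 at -1.06 (limma, unadjusted P = 0.0435, SE 0.51) and Orm2 at -0.96 (limma, unadjusted P = 0.0307, SE 0.42). These 3 of 10 genes stand beside 2.27% of all genes as lower and 1.92% as higher, with none past an adjusted p of 0.05 (0%, smallest adjusted p of the 10 genes 0.974 in limma). For Lcn2 the difference was -0.86 (limma, unadjusted P = 0.116, SE 0.53), so a change of its diet difference with age was not shown. For the other 6 genes it ranged from -0.18 to 0.26. Without the mice with muscle markers only Saa2 met the criterion (-1.33, limma, unadjusted P = 0.0311), with -1.05 for Saa1 and -0.79 for Orm2. With 1 of the 32 mice left out, Saa1 lost its call in 16 fits, Orm2 in 5 and Saa2 in 0. On plate 1 alone no gene met it, and on plate 2 alone Lcn2 met it as well, at -1.39. Among the lists, Apcs met the criterion at -0.58 (limma, unadjusted P = 0.00637, SE 0.20) and Il1r1 at 0.77 (limma, unadjusted P = 0.00145, SE 0.22). The study had selected Saa1 and Il1r1 for differing at 12 weeks only, so their calls here are not independent of that choice. Of the 12 neutrophil markers, 11 averaged below the median over all genes. Among the 12, 8 were lower and 4 higher (median -0.06), and Camp met the criterion at -0.33 (limma, unadjusted P = 0.0183, SE 0.13), in the same direction as Saa1, Saa2 and Orm2. The adipocyte marker Pparg at -0.78 and the stellate marker Lrat at -0.92 met it as lower as well, and the lymphocyte marker Cd8a at 0.36 as higher. Their part in the result was not tested.

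**Figure D3:**
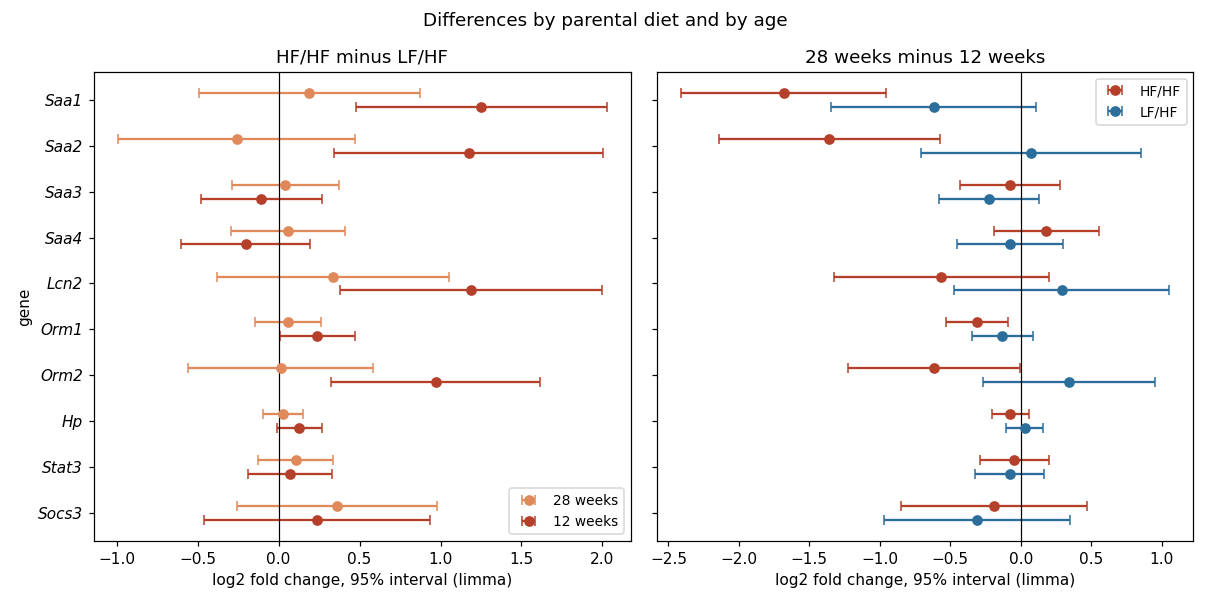
Log2 fold changes of the 10 genes from limma with 95% intervals (horizontal axes), on the left HF/HF minus LF/HF at 28 and 12 weeks and on the right 28 minus 12 weeks within HF/HF and LF/HF offspring. The intervals of Saa1, Saa2, Lcn2 and Orm2 lie above 0 at 12 weeks and include 0 at 28 weeks, and those of Saa1 and Saa2 lie well below 0 for age in HF/HF offspring.

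Within the HF/HF offspring, livers of 28 weeks were compared with those of 12 weeks, the same HF/HF mice of 12 weeks as in the diet comparison above. Saa1, Saa2, Orm1 and Orm2 were lower at 28 weeks, which made 4 of 10 genes by the study's criterion, beside 2.33% of all genes as lower and 1.76% as higher. On plate 1 alone 0 of the 10 met it, and on plate 2 alone 5 did. In limma, 10 of 21115 probe sets (0.0474%) passed an adjusted p of 0.05, none of them among the 10 genes, of which 4 had an unadjusted P under 0.05. A negative log2 fold change was found in 9 of the 10 genes, and the median was -0.25, beside 0.00 over all genes.

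Saa1 was at 4.43, 5.34 and 6.63 in HF/HF mice of 28 weeks (lowest, median and highest), against 5.49, 7.15 and 8.87 in those of 12 weeks. Of 9 older mice, 6 lay below all younger ones, and 5 of 7 younger mice lay above all older ones. The log2 fold change was -1.68 (limma, unadjusted P = 4.36e-05 and adjusted p = 0.0691, SE 0.36), which ranked Saa1 at position 13 of all probe sets. The exact permutation test over 11440 arrangements gave P = 0.00332. The adjusted p of Saa1 ranged from 0.0190 to 0.839 over the 26 alternatives tried and was under 0.05 in 6 of them, the highest value coming from plate 1 alone, where the log2 fold change was -1.02.

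Saa2 had a log2 fold change of -1.36 in HF/HF offspring (limma, unadjusted P = 0.00122 and adjusted p = 0.295, SE 0.38, exact permutation P = 0.0245), with 8 of 9 older mice below the mean of the younger. On plate 1 alone it was -0.50, and on plate 2 it was -2.27. Orm1 was lower by less, at -0.31 (limma, unadjusted P = 0.00641, SE 0.11, exact permutation P = 0.0166), yet 7 of 9 older mice lay below every younger one, its values being 10.02, 10.34 and 10.81 at 28 weeks and 10.46, 10.55 and 10.93 at 12 weeks. Orm2 was at -0.61 (limma, unadjusted P = 0.0485, SE 0.30) and lost its call in 15 of 26 alternatives, and the exact permutation test gave P = 0.158. Without the mice with muscle markers the log2 fold change of Orm2 was -0.45 (limma, unadjusted P = 0.159). Lcn2 was at -0.57 (SE 0.38, interval -1.33 to 0.20). Of 11 Kupffer cell and macrophage markers 4 met the criterion as lower, and their summed intensity was 749 to 1177 in HF/HF mice of 28 weeks and 802 to 1954 in those of 12 weeks. Of the other marker lists, 3 of 10 lymphocyte markers and 1 of 10 adipocyte markers met it as higher, 1 of 10 stellate markers as lower, and 0 of 12 neutrophil markers in either direction. Their part in the age difference was not tested.

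Within the LF/HF offspring none of the 10 genes met the criterion between the ages, although 3.92% of all genes did so as lower and 3.31% as higher, and 166 (0.786%) passed an adjusted p of 0.05 in limma. None of the 10 had an unadjusted P under 0.05, beside 2575 of all genes. Saa1 was at 4.36, 4.96 and 5.83 in LF/HF mice of 28 weeks and 4.95, 5.99 and 6.34 in those of 12 weeks, and 4 of 9 older mice lay below all younger ones. Its log2 fold change was -0.62 (interval -1.35 to 0.11, limma, unadjusted P = 0.0933), whereas the exact permutation test gave P = 0.0469. Saa1 met the criterion when only the LF/HF arrays were fitted (limma, unadjusted P = 0.0201). It also did so with array weights (-0.73, limma, unadjusted P = 0.0481) and on plate 2 alone (-0.94, limma, unadjusted P = 0.0276). On plate 1 alone its log2 fold change was -0.29, without a call. Saa2 was at 0.07 (interval -0.71 to 0.86), Orm2 at 0.34 (interval -0.27 to 0.95) and Lcn2 at 0.29 (interval -0.47 to 1.05). For Lcn2 and Orm2, 4 of 9 older LF/HF mice lay above all younger ones. Of 12 neutrophil markers 1 met the criterion as higher, S100a9 at 0.33, and of 11 Kupffer cell and macrophage markers 1 as lower, Csf1r at -0.34. Of the other marker lists, 2 of 10 lymphocyte and 1 of 10 stellate markers met it as higher, and 1 of 10 hepatocyte markers as lower. Of 10 adipocyte markers 1 met it as higher and 1 as lower, and 1 passed an adjusted p of 0.05 (0.00272 from limma). The part of these markers in the values above was not tested. The contrast of the age changes between HF/HF and LF/HF offspring is the same test as that of the diet differences above.

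Some receptors and targets of the pathway met the criterion between the ages. Over all genes, 3.92% met it as lower and 3.31% as higher in LF/HF offspring. In HF/HF offspring 2.33% met it as lower and 1.76% as higher. Of the 18 IL-6 pathway genes, 7 were higher and 11 lower at 28 weeks in LF/HF offspring (median -0.03). In LF/HF offspring, 4 of 18 IL-6 pathway genes met the criterion, all lower at 28 weeks: the IL-6 receptor Il6ra at -0.35, the shared signal transducer Il6st (gp130) at -0.27, Lifr at -0.49 and the IL-22 receptor Il22ra1 at -0.41 (SE 0.17, 0.09, 0.15 and 0.17, none past an adjusted p of 0.05 in limma). In HF/HF offspring 10 of these 18 were higher and 8 lower at 28 weeks (median 0.05), and the only call was the cytokine Il11, which was higher at 0.30 (SE 0.12). Il11 averaged only 1.82 at 12 weeks and 2.11 at 28 weeks in these mice. Both lie below the median over all genes (3.10), where an array resolves differences poorly. Of the 12 genes induced by or acting beside STAT3, 3 met the criterion in LF/HF offspring, the kinase Pim1 with a log2 fold change of -0.93 (SE 0.19, adjusted p = 0.00785 from limma), Bcl3 at -0.61 and Fos at -0.35. Fos averaged 3.06 or less in all 4 groups, also below that median. In HF/HF offspring 4 of these 12 met the criterion, all lower at 28 weeks: Fos at -0.45, Nfil3 at -0.55, Bcl3 at -0.51 and Junb at -0.43. Pim1 was at -0.24 (SE 0.19) there, and the diet difference of Pim1 changed between the ages by 0.69 (limma, unadjusted P = 0.0135, SE 0.26), in the direction opposite to that of Saa1 and Saa2. Apcs had a log2 fold change of 0.62 (SE 0.14, adjusted p = 0.0222 from limma) in LF/HF offspring, opposite in sign to that of Saa1. Most of its list went the other way. Of the 26 other positive acute-phase genes, 7 were higher and 19 lower at 28 weeks in LF/HF offspring (median -0.09). In HF/HF offspring 5 were higher and 21 lower (median -0.08). The genes named in this paragraph were picked after their values were seen.

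The 10 genes were next compared between mice of the same group, each value taken minus its group mean, over 45 pairs of genes and 32 mice. Saa1, Saa2, Lcn2 and Orm2 rose and fell together from mouse to mouse. Saa1 and Saa2 had Pearson r = 0.89 and Spearman rho = 0.82 (both permutation P = 1e-05, the smallest that the permutations can give, and adjusted over the 45 pairs 0.000450 and 0.000225). For this pair, the near identity of the transcripts has to be kept in mind. Saa2 and Lcn2 had r = 0.79 (permutation P = 7e-05, adjusted 0.00142) and rho = 0.63 (permutation P = 0.000380, adjusted 0.00427). Lcn2 and Orm2, which lie on different chromosomes, had r = 0.74 (permutation P = 0.000180, adjusted 0.00142) and rho = 0.61 (permutation P = 0.000790, adjusted 0.00711).

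The 6 pairs among these 4 genes had r between 0.65 and 0.89. They kept r of 0.51 to 0.83 without the 2 mice farthest from the median of the first gene, 0.68 to 0.93 among the mice of 12 weeks and 0.61 to 0.83 among those of 28 weeks, and 0.66 to 0.89 with the plate means removed as well. Of all 45 pairs, 42 had a positive r and 12 had an adjusted permutation P of r under 0.05. Hp varied with Orm2 (r = 0.67, rho = 0.64, permutation P = 0.000190 and 0.000340, adjusted 0.00142 and 0.00427), and Orm1 varied with Orm2 (r = 0.62, rho = 0.70, permutation P = 0.000140 and 1e-05, adjusted 0.00142 and 0.000225). Without the 2 farthest mice r was 0.63 for Orm2 with Hp and 0.61 for Orm1 with Orm2. Hp and Orm1 thus tended to deviate in the same direction as Orm2 from mouse to mouse.

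Saa4, the constitutive member, had r between -0.28 and 0.22 over its 9 pairs, with no adjusted P under 0.05. The 9 pairs of Socs3 had r between -0.03 and 0.39 and those of Stat3 between 0.11 and 0.39, likewise with none past 0.05. For both genes the values differed between the ages. Socs3 with Lcn2 had r = -0.12 among the mice of 12 weeks and 0.67 among those of 28 weeks, and Socs3 with Orm2 had -0.01 and 0.62. Stat3 with Hp had r = -0.62 at 12 weeks and 0.50 at 28 weeks. These differences between the ages were seen in the data first and were not tested.

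**Figure D4:**
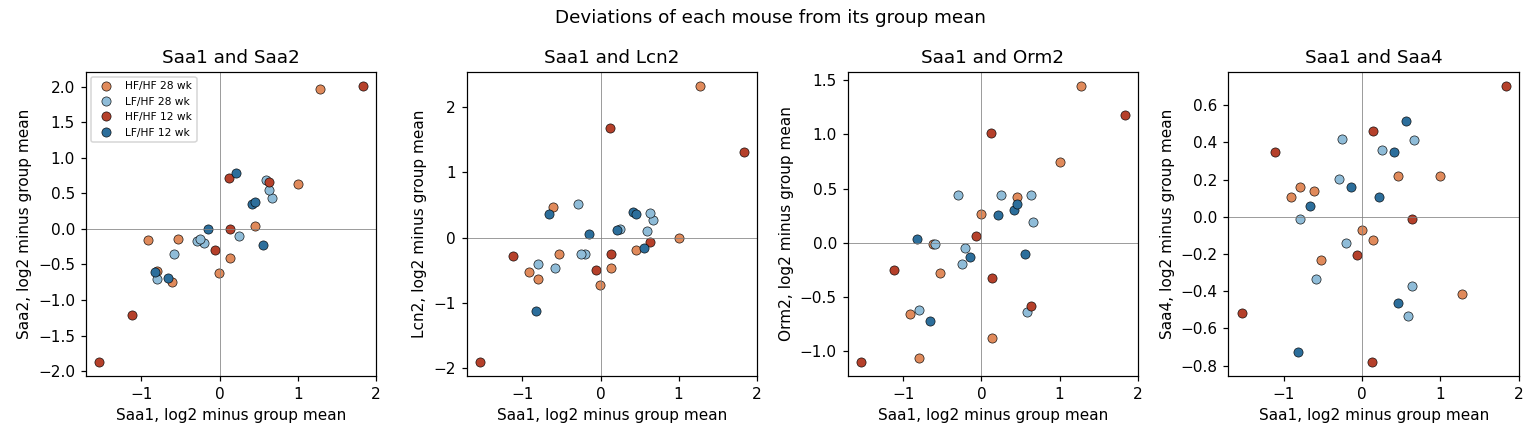
Deviation of each of the 32 mice from its group mean (log2), with Saa1 on the horizontal axes and Saa2, Lcn2, Orm2 or Saa4 on the vertical axes. With the 4 groups pooled, Saa1 rose together with Saa2 (r = 0.89), Lcn2 (r = 0.65) and Orm2 (r = 0.67), and less with Saa4 (r = 0.22). No r was taken within single groups.

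The spread between mice was larger in HF/HF than in LF/HF offspring for 7 of 10 genes at 28 weeks and for 8 of 10 at 12 weeks, given here as a description. The SD of Saa2 at 12 weeks was 1.30 among HF/HF and 0.54 among LF/HF mice. The SD of Lcn2 was 1.19 among HF/HF and 0.53 among LF/HF mice of 12 weeks, and 0.94 among HF/HF and 0.36 among LF/HF mice of 28 weeks.

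The pattern of the 10 genes over the 32 mice, taken as the mean of their standardized values within groups, was set against 10043 other named genes at or above the median level. Among the highest Pearson r were 0.69 for Hpx, 0.69 for Dap, 0.64 for F11r, 0.64 for Wdr83 and 0.63 for Tm4sf4. Hpx encodes hemopexin, a haem-binding acute-phase protein. It averaged 12.63 ± 0.22 in HF/HF and 12.51 ± 0.08 in LF/HF mice of 12 weeks (log2, SD, n = 7 each), with a log2 fold change of 0.12 (SE 0.09). The lowest r were -0.60 for Col27a1, -0.60 for Ptprd and -0.57 for Gsta3, a glutathione transferase. These are the extremes of many genes and are given as a description without a test.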

How the data were processed

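Liver RNA of 32 mice was measured, 1 mouse each, on the Mouse Gene 1.1 ST platform of Affymetrix. The authors normalized the signal by the robust multichip average (RMA) in the MADMAX pipeline and deposited linear intensity values for 21115 probe sets, 1 per Entrez gene. Tool versions and genome build are not given in the sources used here. The authors' own columns of fold changes, p-values and q-values were not used.

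The log2 of the intensities was fitted in limma 3.58.1 (R 4.3.3) over the 32 arrays together, each group having its own mean, with an intensity trend in eBayes, without a filter on level. P-values were two-sided and adjusted by Benjamini-Hochberg over all 21115 probe sets. The study describes a paired test without giving the pairs, so mice were treated as independent. Single genes were also tested by exact permutation, whose smallest P is 0.000583 for 7 mice against 7, 4.11e-05 for 9 against 9 and 8.74e-05 for 9 against 7. Relations between genes were tested by 100000 permutations of the mice within groups. The steps were tested on simulated data. The number of mice limits the precision.

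The 10 genes and the lists were chosen with earlier results of these data known. Of each acute-phase or signaling list, up to 4 genes of smallest P that met the study's criterion in a diet comparison were named, and cell type markers only where a value beside a result needed them. Il6, Tnf and Alb were named beside these. Genes of the lists that met the criterion only between the ages were picked after their values were seen. For the genes of most similar pattern, the 6 highest and 3 lowest correlations among named genes at or above the median level were taken, of which 1 is not reported here. Names were matched by Entrez ID to RefSeq (GRCm38.p6), whose promoter table served for the sequences. The alternatives tried were a fit to the compared arrays only, eBayes with no trend, the replicate number as a block, cyclic loess, array weights, genes at or above the median level, either plate by itself, a plate block, omission of the mice with muscle markers, and omission of each mouse in turn.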

Additional observations from a re-analysis of the deposited data

Results flagged for a closer look

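The diet difference changed with age, by an unadjusted P under 0.05 from limma, in Saa1 (-1.06), Saa2 (-1.43) and Orm2 (-0.96), each as 28 weeks minus 12 weeks. In Lcn2, a mouse lay far from the rest of its group at each age. HF/HF replicate 3 of 28 weeks was at 7.87 with the next mouse at 6.01, and LF/HF replicate 2 of 12 weeks was at 3.81 with the next at 4.76. This LF/HF mouse also had the lowest Saa1 of its group. Of 40 groups of values examined, 2 held such a mouse, and chance gives about 1 in 20.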

How the results depend on the processing

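The number of the 10 genes that met the criterion was 4 for diet at 12 weeks, 0 for diet at 28 weeks, 3 for diet by age, 4 for age in HF/HF and 0 for age in LF/HF. With any 1 mouse left out these counts were 4 to 5, 0, 1 to 4, 2 to 5 and 0 to 1. The count for diet by age was 1 without HF/HF replicate 3 or 6 or LF/HF replicate 7 of 12 weeks, or without HF/HF replicate 6 of 28 weeks. That for age in HF/HF was 2 without HF/HF replicate 6 of 12 weeks, and that for age in LF/HF was 1 without LF/HF replicate 2 of 12 weeks. On plate 1 alone the counts were 0 for diet at 12 weeks, 1 for diet at 28 weeks, 0 for diet by age and 0 for age in HF/HF. On plate 2 alone they were 5, 0, 4 and 5 in the same order. Each plate held only part of the mice. Age in LF/HF had 1, Saa1, with only the arrays compared, with array weights and on plate 2 alone. Diet by age had 1 without the mice with muscle markers. The cause was not tested. Same-numbered mice did not deviate together (r from -0.16 to 0.10), and with the replicate block the counts were 4, 0, 3, 3 and 0, which changed 1 call, Orm2 for age in HF/HF (-0.56).

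All reversals of sign were of log2 fold changes without a call. On plate 1 alone the sign turned in Saa2 (0.0772) for diet at 28 weeks and Saa3 (0.0250), Lcn2 (0.14), Socs3 (0.16) for age in HF/HF. On plate 2 alone the sign turned in Saa4 (0.0626), Stat3 (-0.0725), Socs3 (-0.18) for diet at 12 weeks, Saa4 (-0.0122), Lcn2 (-0.17), Orm1 (-0.0454), Orm2 (-0.31), Stat3 (-0.0802), Socs3 (-0.16) for diet at 28 weeks, Saa4 (-0.0747), Stat3 (-0.00774) for diet by age, Saa4 (-0.15), Stat3 (0.0163) for age in HF/HF and Saa2 (-0.11), Stat3 (0.0240) for age in LF/HF. With array weights the sign turned in Orm2 (-0.00264) for diet at 28 weeks and Saa2 (-0.0273) for age in LF/HF. Without the mice with muscle markers the sign turned in Orm2 (-0.0110) for diet at 28 weeks. With the replicate block the sign turned in Stat3 (0.00942) for age in HF/HF. With 1 mouse left out, the values that turned ranged as follows: Saa3 (-0.20 to 0.0186) for diet at 12 weeks, Stat3 (-0.0198 to 0.11), Socs3 (-0.0488 to 0.32) for diet by age, Saa2 (-0.0403 to 0.20), Saa4 (-0.20 to 0.00695), Hp (-0.00271 to 0.0485) for age in LF/HF, Saa3 (-0.14 to 0.0197), Socs3 (-0.36 to 0.00198) for age in HF/HF and Saa3 (-0.0263 to 0.12), Saa4 (-0.00850 to 0.11), Orm1 (-0.00302 to 0.0958), Orm2 (-0.17 to 0.15) for diet at 28 weeks.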
